A study of Mus musculus with 16 samples.

Results

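Gluconeogenesis, the synthesis of glucose from lactate, amino acids and glycerol, was followed through 7 genes: Pcx, Pck1, Pck2, Fbp1, G6pc, G6pc3 and Slc37a4. They were chosen by name, and every probe of the array that carried 1 of these names was taken. The array held 37074 gene names, and the 7 genes had 10 probes, of which 9 were kept by the filter on dim probes. All 7 genes had at least 1 kept probe, as did 20404 genes in all.

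The liver makes glucose between meals. Pyruvate carboxylase (Pcx) and the phosphoenolpyruvate carboxykinases (Pck1 in the cytosol, Pck2 in mitochondria) bypass the pyruvate kinase step of glycolysis, fructose-1,6-bisphosphatase (Fbp1) reverses the phosphofructokinase step, and glucose-6-phosphatase frees glucose from glucose-6-phosphate inside the endoplasmic reticulum, which the sugar phosphate enters through the transporter encoded by Slc37a4. G6pc is the catalytic subunit of liver and kidney, and G6pc3 is a related subunit found in most tissues. In fasting, glucagon and glucocorticoids raise Pck1 and G6pc transcription, insulin lowers it after a meal, and free fatty acids act through the nuclear receptor PPARalpha on the genes of fatty acid oxidation and ketogenesis.

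Total liver RNA (200 ng per array) was measured in 16 male C57BL/6 mice, 1 array per mouse. The mice were conventional, had not been treated with antibiotics and were fed a normal chow (NC) throughout. They were 6 weeks old at the start and 10 weeks old, after 4 weeks on NC, when the liver was taken in the fasted state. The groups are defined by what was given by gavage. The 6 Conv + PBS mice are controls that the labels call not transplanted and that the methods describe as given reduced PBS, the 5 Conv + LM mice received caecal content of lean donors, and the 5 Conv + OM(HFD) mice received caecal content of donors made obese on a high-fat diet (HFD). The caecal content was pooled from several donors and the mice were group-housed, on an inverted light cycle, with no cage given in the labels. The p-values therefore measure the spread between mice and do not cover that between donor pools or cages. The arrays lay on 2 slides scanned at different times: slide 1 held 3 livers of Conv + PBS, 2 of Conv + LM and 3 of Conv + OM(HFD), and slide 2 held 3, 3 and 2.

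All 6 hepatocyte markers (Alb, Apoa1, Ttr, Serpina1a, Tat and Apob) were well above background on all 16 arrays. The 75th percentile of the signals lay between 152.5 and 219.6 intensity units, and between 49.75% and 58.33% of the probes were well above background. Some livers stood apart in markers of other cells. The log2 summed signal of the neutrophil markers was 5.01 in Conv + PBS mouse 1 and 4.91 in Conv + OM(HFD) mouse 25, against 0.58 to 1.29 in the other mice, and the same 2 mice had the highest Kupffer cell sums (7.61 and 6.44, against 4.74 to 5.64). Adipocyte markers summed to 3.45 in Conv + LM mouse 15 and to no more than 1.14 elsewhere. Of the 6 exocrine pancreas markers 3 were well above background on all arrays and Cpa1 on none, with sums of 4.19 to 5.6, and of the 6 muscle markers 3 were so on all arrays and Ckm on none, with sums of -0.82 to -0.03. Prss2 and Pnlip of the pancreas also failed the filter on dim probes, as did Acta1 of muscle, Adipoq and Retn of adipocytes and Retnlg of neutrophils. The pancreas, muscle and adipocyte sums therefore do not show that such tissue was present.

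The probes are 60 bases long, and where a probe lies in the transcript sets what it can report. Those below are shown because 3 of the genes had 2 probes each, which could be set against each other. The first line of each pair is the brighter probe, and positions are those of the array design (mm9). The brighter Pck2 probe is at chr14:56167465-56167524, and the dimmer G6pc3 probe at chr11:102054505-102054780 spans more than its own length and so crosses an exon junction. Of each probe 30 bases are printed, with the polyadenylation signal AATAAA in capitals where it occurs in them.

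Pck2 A_52_P21659, first 30 bases: atccccaaggacttctgggagcaggaggtt
Pck2 A_55_P2822590, last 30 bases: tttgcatttcaaaaatacagagttggattg
G6pc3 A_51_P430552, last 30 bases: ccccAATAAAgcccttggaacttgtgaatt
G6pc3 A_66_P123488, first 30 bases: ttggactctctttacactgggcctagatct
Slc37a4 A_55_P2736705, last 30 bases: aaccgacttgtatagatcAATAAAgctaga
Slc37a4 A_55_P2047215, last 30 bases: attccagaAATAAAcgataggctttaagaa

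The brighter Slc37a4 probe ends 6 bases after its polyadenylation signal and the brighter G6pc3 probe 20 bases after it. The dimmer Slc37a4 probe also holds AATAAA, 16 bases before its end. The dimmer Slc37a4 probe (chr9:44205736-44205795) was designed on a cDNA clone and lies upstream of the brighter one (chr9:44210978-44211037). Its accession had no match in RefSeq, whereas the accessions of the other 9 probes matched the symbols of the array. The dimmer Pck2 probe (chr14:56168322-56168381) lies downstream of the brighter one.

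Values are given as log2 signal relative to the 75th percentile of each array, so that a difference of 1 is a 2-fold change. Since probes differ in how they bind, levels are compared between mice and not between genes. In bulk liver, fewer cells of a type and less RNA per cell cannot be told apart.

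Pcx, which makes oxaloacetate from pyruvate, was measured by 1 probe (chr19:4621610-4621669). In Conv + PBS livers it had its lowest value at 7.01, its median at 7.08 and its highest at 7.41. In Conv + LM mice 13 to 17 it was 7.07, 6.94, 7.22, 7.09 and 7.12, and in Conv + OM(HFD) mice 25, 26, 28, 29 and 30 it was 7.07, 7.14, 7.10, 7.03 and 7.31. The groups overlapped almost fully, and the highest value of all was that of Conv + PBS mouse 3. The means were 7.12 ± 0.15 (SD, n = 6), 7.09 ± 0.10 (SD, n = 5) and 7.13 ± 0.11 (SD, n = 5).

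Pck1, long known as the hormone-controlled step of the pathway, was measured by 1 probe (chr2:172984307-172984366). Its values ran from 8.84 over a median of 9.22 to 9.41 in Conv + PBS livers. They were 9.19, 9.57, 9.43, 9.44 and 9.03 in Conv + LM mice 13 to 17 and 9.30, 9.41, 9.46, 9.26 and 9.34 in the Conv + OM(HFD) mice, in the order above. The Conv + OM(HFD) livers lay close together, all within the upper part of the Conv + PBS range or just above it, and Conv + PBS mouse 2 was the lowest of all. The means were 9.20 ± 0.21 (SD, n = 6), 9.33 ± 0.22 (SD, n = 5) and 9.35 ± 0.08 (SD, n = 5).

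Pck2, the mitochondrial form, had a brighter probe that was well above background on all 16 arrays. Its lowest, median and highest values in Conv + PBS livers were 0.10, 0.28 and 0.41. Conv + LM mice 13 to 17 had 0.13, 0.54, 0.18, 0.23 and 0.24, and the Conv + OM(HFD) mice had 0.78, 0.02, 0.25, 0.41 and 0.35. Conv + OM(HFD) held both the highest value (mouse 25) and the lowest (mouse 26). The downstream probe was well above background on 3 arrays, 1 in each group, and was left out of the tests.

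Fbp1 varied little. Its probe (chr13:62966175-62966234, minus strand) gave 9.55, 9.70 and 9.80 as lowest, median and highest in Conv + PBS livers. The Conv + LM mice had 9.50, 9.45, 9.67, 9.54 and 9.60, and the Conv + OM(HFD) mice had 9.66, 9.63, 9.62, 9.67 and 9.78. Of the 5 Conv + LM livers, 3 were below every Conv + PBS liver, and the Conv + PBS and Conv + OM(HFD) livers overlapped. The SD within groups was 0.078 on the log2 scale, smaller than that of all but 0.539% of the 20404 genes, and the highest and lowest of the 16 livers differed 1.28-fold. The related muscle enzyme gene Fbp2 was well above background on no array.

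G6pc, the last step, was the most variable of the 7 genes, with an SD within groups of 0.291. Its probe (chr11:101238947-101239006) gave a lowest value of 7.33, a median of 7.79 and a highest value of 8.18 in Conv + PBS livers. It gave 7.98, 7.79, 7.94, 7.42 and 7.72 in Conv + LM mice and 7.50, 8.04, 7.62, 7.23 and 7.80 in Conv + OM(HFD) mice. The spread within each group was wider than the distance between the group means, which were 7.79 ± 0.33 (SD, n = 6), 7.77 ± 0.22 (SD, n = 5) and 7.64 ± 0.31 (SD, n = 5).

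Slc37a4, the carrier that brings glucose-6-phosphate to the phosphatase, gave 7.05, 7.38 and 7.50 as lowest, median and highest of the Conv + PBS livers with its brighter probe. Conv + LM mice 13 to 17 had 7.48, 7.40, 7.36, 7.12 and 6.85, and the Conv + OM(HFD) mice had 7.24, 7.41, 7.11, 6.96 and 7.19. Low values occurred in each group, in Conv + PBS mouse 1, Conv + LM mouse 17 and Conv + OM(HFD) mouse 29. G6pc3, the widely expressed phosphatase, ran from 1.66 over a median of 2.03 to 2.08 in Conv + PBS livers with its brighter probe (chr11:102055338-102055395). It was 2.24, 1.87, 2.10, 1.91 and 1.90 in Conv + LM mice and 2.14, 2.12, 1.72, 1.77 and 1.80 in Conv + OM(HFD) mice. The highest value was that of Conv + LM mouse 13, the lowest values were those of Conv + PBS livers, and the groups overlapped.

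**Figure D1:**
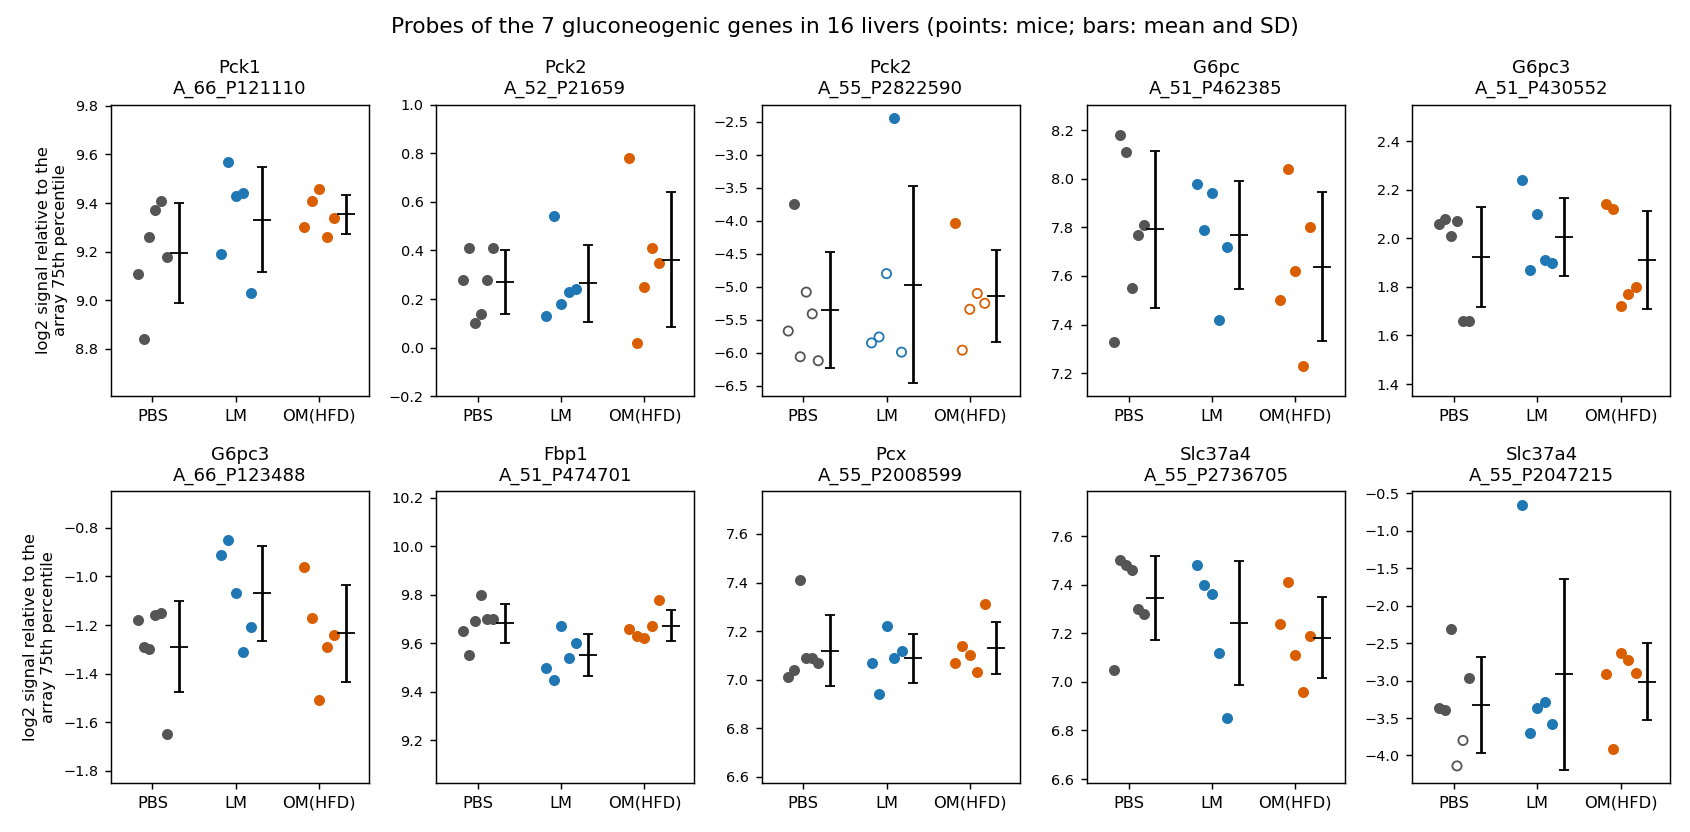
Log2 signal relative to the array's 75th percentile (vertical axes, one scale per panel) for the 10 probes of the 7 genes, by group on the horizontal axes. Each point is a mouse, filled where the probe was well above background, and bars are the mean and SD. Groups overlap in every panel, and the dimmer Pck2 and Slc37a4 probes scatter most, with Conv + LM mouse 13 at -0.65 on the dimmer Slc37a4 probe.

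The study used the arrays to look for changes of hepatic gene expression after each transfer relative to the vehicle, and the comparison of both transfers with each other was added here. In livers of Conv + OM(HFD) against Conv + PBS, 0 of 7 members had an unadjusted limma p under 0.05, against 3.25% of all genes. The log2 differences ran from -0.17 for Slc37a4 to 0.16 for Pck1, with a median of -0.01 beside -0.00209 over all genes. For G6pc the difference was -0.15 (SE 0.17, 95% interval -0.52 to 0.21), which in fold terms spans 0.70 to 1.15, and it lay between -0.25 and -0.05 when 1 mouse was left out. For Pck1 it was 0.16 (SE 0.113, 95% interval -0.09 to 0.40, 0.08 to 0.20 when 1 mouse was left out), and for Slc37a4 -0.17 (SE 0.122, 95% interval -0.43 to 0.09, -0.23 to -0.11 when 1 mouse was left out). The 95% intervals of the 7 genes together reached from 0.70-fold to 1.32-fold. No member had an adjusted p under 0.05, nor did any gene (0% of 20404, smallest adjusted p 1), and in no member were the 2 groups apart without overlap (0.23% of all genes).

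Conv + LM and Conv + PBS livers gave the same count, 0 of 7 members at an unadjusted limma p under 0.05, against 3.88% of all genes. The median log2 difference of the members was -0.02 beside -0.0107 over all genes. The smallest p was that of Fbp1, with a difference of -0.13 (0.91-fold, SE 0.0663, 95% interval -0.27 to 0.01, limma p 0.0644, adjusted p 0.998). The exact permutation test over the 11 mice, two-sided, gave a p of 0.0346 for this gene, and 1 of 7 members against 3.88% of all genes was under 0.05 by that test. The difference was as large without Conv + PBS mouse 1 and Conv + OM(HFD) mouse 25 (-0.14), and was -0.17 on slide 1 and -0.12 on slide 2. It was -0.10 with quantile normalization (limma p 0.116) and -0.13 with the authors' own values (limma p 0.12). With the normexp background correction it was -0.14 (limma p 0.049), and it lay between -0.16 and -0.11 when 1 mouse was left out. No member had groups without overlap (0.279% of all genes), and 0% of genes had an adjusted p under 0.05.

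When Conv + OM(HFD) was set against Conv + LM, 0 of 7 members had an unadjusted limma p under 0.05, against 2.67% of all genes, with a median difference of 0.02 beside 0.00343. Fbp1 was again the member with the smallest p, at 0.12 (1.09-fold, SE 0.0693, 95% interval -0.03 to 0.27, limma p 0.105), and the exact permutation test gave a p of 0.0476. It was the only member under 0.05 by the exact test, against 2.98% of all genes, and between Conv + OM(HFD) and Conv + PBS no member was (3.15% of all genes). The Fbp1 difference was 0.21 on slide 1 and 0.04 on slide 2, and 0.06 with quantile normalization in place of the 75th percentile. No member had groups without overlap (0.436% of all genes), and 0% of genes had an adjusted p under 0.05. The Fbp1 comparisons share the Conv + LM mice, so they are not independent of each other.

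**Figure D2:**
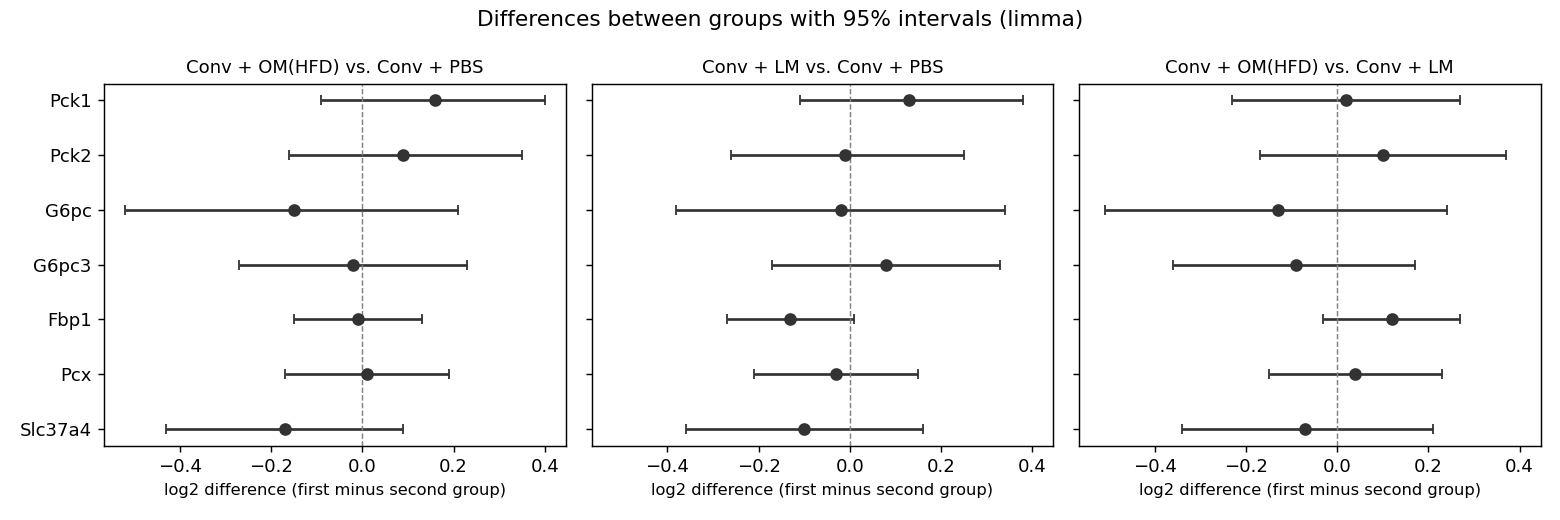
Log2 difference (horizontal axis, first minus second group) of each of the 7 genes in the 3 comparisons, with the 95% interval of the limma fit as bars. All 21 intervals include 0, and those of Fbp1 are the narrowest.

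The slides gave 1 value that stood out. On slide 1 alone, with 3 livers in each of both groups, the G6pc difference between Conv + OM(HFD) and Conv + PBS was -0.38 with an unadjusted limma p of 0.0423, and on slide 2 it was 0.07. On slide 1 alone 3.82% of all genes passed in this comparison. With the slide as a block 0 members passed an unadjusted p of 0.05 in any comparison, against 3.4%, 4.7% and 4.22% of all genes in the order above.

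Of 20 enzymes that gluconeogenesis shares with glycolysis or that feed it, 18 were kept by the filter. Of these, 0 were higher and 1 was lower in Conv + OM(HFD) livers relative to Conv + PBS at an unadjusted limma p under 0.05, where 1.49% of all genes were higher and 1.76% lower. It was Mdh1, the cytosolic malate dehydrogenase, at -0.17 (unadjusted p 0.0411, adjusted p 1). In Conv + LM against Conv + PBS 0 were higher and 1 lower, against 1.79% and 2.09% of all genes: Gpi1, glucose-6-phosphate isomerase, at -0.28 (unadjusted p 0.0252, adjusted p 0.998). In Conv + OM(HFD) against Conv + LM, 0 passed in either direction, where 1.38% of all genes were higher and 1.29% lower.

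Of the 11 carriers of substrates and products, all kept, Slc2a2, the glucose transporter of the hepatocyte membrane, was 0.76-fold in Conv + OM(HFD) relative to Conv + PBS. Its Conv + PBS livers ran from a lowest value of 2.91 over 3.18 to 3.72, and its Conv + OM(HFD) livers from 2.50 to 3.26, with overlap. The log2 difference was -0.40 (SE 0.184, unadjusted limma p 0.0466, adjusted p 1). Slc25a10, the mitochondrial dicarboxylate carrier, was 0.80-fold in Conv + OM(HFD) relative to Conv + LM (log2 difference -0.32, unadjusted p 0.0324, adjusted p 0.999). Each was the 1 carrier of 11 that was lower at an unadjusted p under 0.05, against 1.76% and 1.29% of all genes, none was higher, and Conv + LM against Conv + PBS had 0 of 11 in either direction (2.09% of all genes lower, 1.79% higher). The 18 regulators, among them Ppargc1a, Foxo1, Hnf4a, Gcgr and Insr, had 0 genes under an unadjusted p of 0.05 in each of the 3 comparisons, where 3.25%, 3.88% and 2.67% of all genes were. The same held for the 12 PPARalpha targets and the 8 hormone-response genes of fasting. Of the 8 fed, lipogenic genes, 3 were lower in Conv + OM(HFD) livers relative to Conv + PBS at an unadjusted p under 0.05, where 1.76% of all genes were lower, with a median log2 difference over the list of -0.53 beside -0.00209 over all genes. They were Elovl6 (-0.64), Fasn (-0.76) and Thrsp (-0.89), named after their values were seen. In Conv + LM against Conv + PBS 1 of the 8 was lower (Me1, -0.42, unadjusted p 0.0146, adjusted p 0.998), and in Conv + OM(HFD) against Conv + LM 1 was lower (Thrsp, -1.0, unadjusted p 0.00971, adjusted p 0.999), against 2.09% and 1.29% of all genes. The lists overlap, with Ppargc1a, Irs2, Klf15 and Cebpb in both the regulators and the hormone-response genes.

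How the genes varied together within groups was taken from pairs. For each pair the values were taken as deviations from their group means over the 16 mice, and Pearson's r and Spearman's rho were tested with 100000 permutations within groups. In all 213 relations were computed (21 pairs of members, 140 of a member with a fasting gene, 49 of a member with the mean of a list and 3 pairs of probes), and p-values were adjusted over all of them. None had an adjusted p under 0.05, and the smallest adjusted p was 0.178 for r and 0.0762 for rho. With the authors' values 1 pair of members, G6pc and Slc37a4, and 8 relations with other genes and lists had an adjusted p of r under 0.05. The r of the 21 pairs ran from -0.483 to 0.691 with a median of -0.0981, and 10 of them were positive. At an unadjusted p of 0.05, 1 of the 21 pairs and 30 of the 140 relations with fasting genes passed, as did 8 of the 49 with list means. For the 6 members other than G6pc, 4.21% (Pck1) to 17.1% (G6pc3) of all genes had an r with the member as large as the smallest that passed with a fasting gene, and G6pc had no such relation. Each member was also correlated with the marker sum of each cell type, outside the 213 relations and with no p-value. The marker correlations printed below were picked from these with their values known.

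The pair that stood highest was G6pc and Slc37a4, the phosphatase and the carrier that supplies it. Their r was 0.691 (permutation p 0.00363, adjusted 0.178) and their rho 0.768 (permutation p 0.00126, adjusted 0.0762). Conv + PBS mouse 1 and Conv + OM(HFD) mouse 29 were at the bottom of their groups for both genes, and Conv + PBS mouse 2, Conv + LM mouse 13 and Conv + OM(HFD) mouse 26 were at the top of theirs for both. The lowest Conv + LM liver was mouse 16 for G6pc and mouse 17 for Slc37a4, and Conv + PBS mouse 4 was below its group mean for G6pc and above it for Slc37a4. Without the 2 mice whose G6pc was farthest from the median r was 0.518, with the mean of both Slc37a4 probes it was 0.322, on slide 1 it was 0.654 and on slide 2 0.675. Of the 20327 other genes with a value on every array, 168 had an r with G6pc as high as that of Slc37a4 or higher, Slc37a4 included. G6pc had an r of -0.65 with the Kupffer cell marker sum and -0.483 with the neutrophil marker sum, and Slc37a4 one of -0.52 with the Kupffer cell marker sum, which is highest in Conv + PBS mouse 1 and Conv + OM(HFD) mouse 25. Without those 2 mice the r of G6pc and Slc37a4 was 0.637.

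For Pck1 and G6pc, both raised by fasting hormones, the r was -0.134 (permutation p 0.647, adjusted 0.813; rho -0.100, permutation p 0.723), it was -0.666 on slide 1 and 0.208 on slide 2, and it was 0.14 without the 2 mice farthest from the median of Pck1. Pcx went with Fbp1 (r 0.538, permutation p 0.0565; rho 0.541, permutation p 0.0416; adjusted 0.27 and 0.219), and was opposite to Pck2 (r -0.483, permutation p 0.0591; rho -0.712, permutation p 0.00568; adjusted 0.27 and 0.078). The r of Pck2 and Pcx was -0.387 without the 2 mice farthest from the median of Pck2. It was -0.629 on slide 1 and -0.597 on slide 2, and lay between -0.557 and -0.377 when 1 mouse was left out. G6pc3 and Slc37a4 had an r of 0.498 (permutation p 0.0585, adjusted 0.27; rho 0.524, permutation p 0.0435), which was 0.919 on slide 1, 0.511 on slide 2 and 0.69 without the 2 mice with high neutrophil and Kupffer cell sums, but 0.183 with the mean of both probes of each gene, 0.367 with normexp and 0.387 with the authors' values. The r of Fbp1 and Pcx was 0.452 without Conv + LM mouse 15, in which adipocyte markers were high, and 0.11 with quantile normalization, so it changed with how the arrays were scaled.

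**Figure D3:**
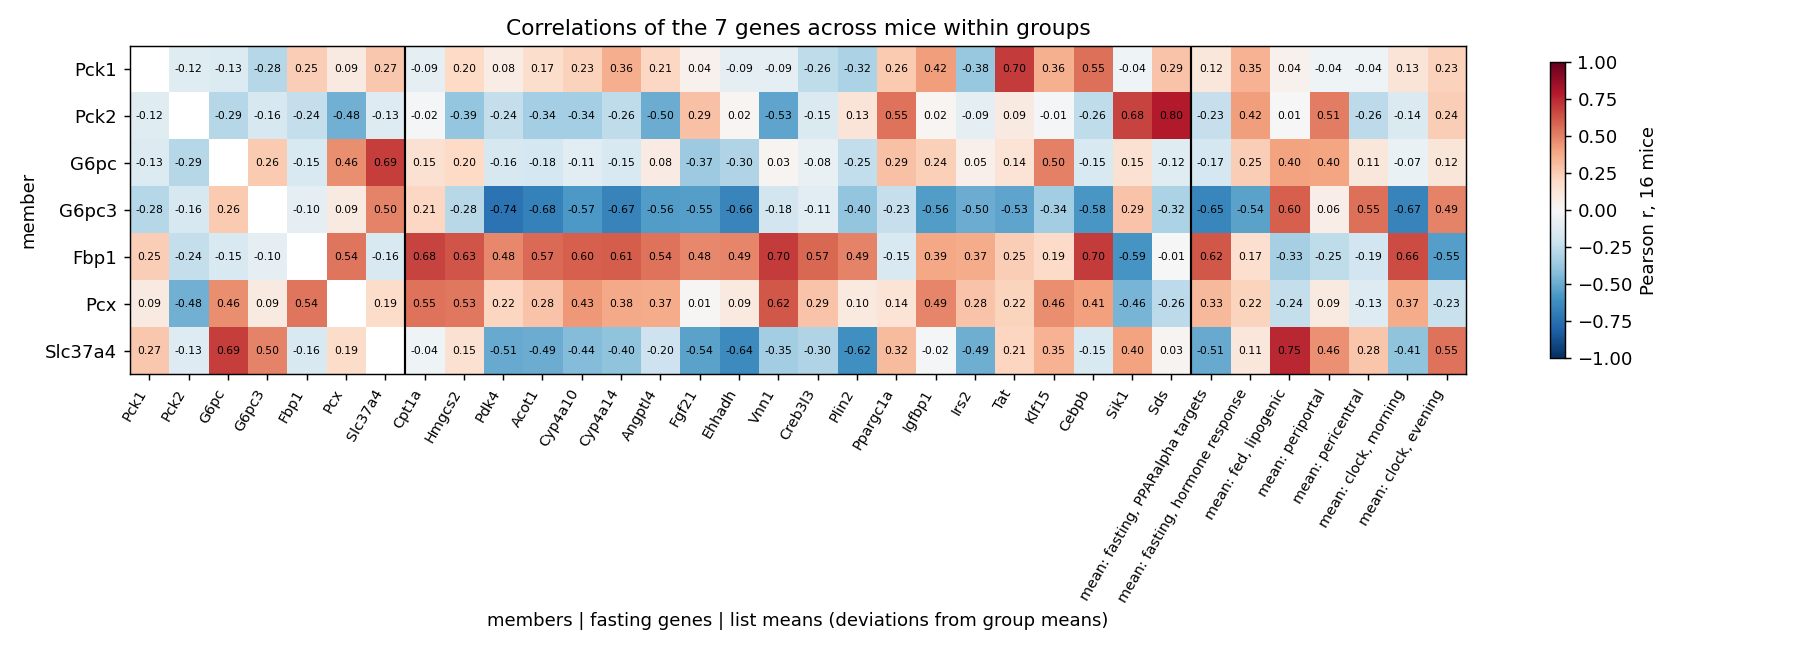
Pearson r of deviations from group means over 16 mice for each of the 7 genes (rows) with the other members, with 20 fasting genes and with the means of 7 gene lists (columns). Colour runs from blue (negative) to red (positive). The row of G6pc3 is blue and that of Fbp1 red across most PPARalpha targets, and the square of G6pc and Slc37a4 is the reddest of the member pairs.

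Fasting genes differed widely between livers of the same group. The mean log2 signal of the 12 PPARalpha targets ran from 4.02 to 5.96 in Conv + PBS, from 4.09 to 6.07 in Conv + LM and from 4.35 to 6.02 in Conv + OM(HFD) livers. The members covered less, since the highest and lowest of the 16 livers differed 1.93-fold for G6pc and 1.66-fold for Pck1. The mean of the 8 hormone-response genes, which include Ppargc1a, Igfbp1, Irs2, Tat and Sds, ranged less, from 4.59 to 5.40 over all livers.

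G6pc3 was the member most often opposite to the fasting genes. These genes were read in the same mice, so counts of sign, here and below, are not counts of independent relations. The share of all genes with each sign was not computed. Of the 20 relations of G6pc3 with the fasting genes 18 were negative, and 10 had an unadjusted p under 0.05, with r of 0.529 or more in size. An r of that size or more was common, since 17.1% of 20327 genes had one with G6pc3. The one of largest size was with Pdk4, the kinase that shuts off pyruvate dehydrogenase in fasting, at r -0.741 (permutation p 0.00394, adjusted 0.178; rho -0.726, permutation p 0.00436, adjusted 0.0762). It was -0.618 without the 2 mice farthest from the median of G6pc3, -0.80 on slide 1 and -0.826 on slide 2. With the mean of the PPARalpha targets the r of G6pc3 was -0.651 (permutation p 0.0131, adjusted 0.186), with the mean of the fed, lipogenic genes 0.601 (permutation p 0.0219, adjusted 0.231), and with the morning clock genes Arntl and Clock, whose expression shifts with the time of day, -0.669 (permutation p 0.0107, adjusted 0.178). All 27 relations of G6pc3 with fasting genes and list means had the same sign under the 75th percentile scaling, quantile normalization, the normexp background correction and the authors' own values. The mean of both G6pc3 probes gave -0.763 with Pdk4 and -0.667 with the PPARalpha targets.

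Slc37a4 went with the lipogenic genes. Its r with the mean of the 8 fed genes, among them Srebf1, Fasn and Acly, was 0.752 (permutation p 0.00249, adjusted 0.178; rho 0.776, permutation p 0.00257, adjusted 0.0762). It was 0.686 without the 2 mice farthest from the median, 0.389 on slide 1 and 0.723 on slide 2, and 0.136 with the mean of both Slc37a4 probes in place of the brighter. Among the fasting genes the largest in size was Ehhadh, a peroxisomal enzyme of fatty acid oxidation, at r -0.638 (permutation p 0.0186, adjusted 0.228; rho -0.609, permutation p 0.0227), which was -0.249 without the 2 mice farthest from the median and -0.371 with the mean of both probes. Of the 12 PPARalpha targets 11 had a negative r with Slc37a4, and 11 had a negative r with G6pc3. Without Conv + PBS mouse 1 and Conv + OM(HFD) mouse 25, r was 0.783 with the fed genes and -0.83 with Ehhadh, each with an adjusted p of 0.0443.

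For G6pc, 10 of 20 relations with fasting genes were positive, 0 had an unadjusted p under 0.05, and the largest was Klf15, a glucocorticoid-induced transcription factor, at r 0.504 (permutation p 0.0655, adjusted 0.27), which was -0.264 on slide 1 and 0.284 without the 2 mice with high immune cell sums. Pck1 went with Tat, tyrosine aminotransferase, another target of glucagon and glucocorticoids, at r 0.703 (permutation p 0.0153, adjusted 0.203; rho 0.812, permutation p 0.00185, adjusted 0.0762), 0.817 without the 2 mice farthest from the median, 0.807 on slide 1 and 0.732 on slide 2. Of the 12 PPARalpha targets, 7 had a positive r with Pck1 and 0 an unadjusted p under 0.05. Pck2 went with Sds, serine dehydratase, which makes pyruvate from serine, at r 0.796 (permutation p 0.0027, adjusted 0.178; rho 0.653, permutation p 0.0136), 0.523 without the 2 mice farthest from the median. It was 0.726 without the 2 mice with high immune cell sums. Among 20327 genes Sds ranked 17 by its r with Pck2. Pck2 also had an r of -0.741 with the exocrine pancreas marker sum and of 0.487 with the neutrophil marker sum, whose part in this relation was not tested.

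Fbp1 had positive correlations with the PPARalpha targets on the scale used here, but not with quantile normalization. All 12 targets had a positive r with Fbp1, from 0.483 to 0.703, and 8 had an unadjusted p under 0.05. Of all 20327 genes, 11.5% had an r with Fbp1 of 0.544 or more in size, the smallest that passed with a fasting gene. The highest was Vnn1, a pantetheinase under PPARalpha control, at r 0.703 (permutation p 0.00548, adjusted 0.178; rho 0.756, permutation p 0.00303, adjusted 0.0762). With quantile normalization the same r was -0.12 and with the authors' values -0.273, and for the mean of the PPARalpha targets it went from 0.623 to -0.179 and -0.186. Of the 13 relations of Fbp1 with an unadjusted p under 0.05, 1 kept its sign in all 4 ways to make the values. The 2 scalings differ at the brightness of Fbp1 by a step that ranges over 0.35 log2 units between mice, as much as the 0.35 log2 units that Fbp1 itself covers over the 16 livers. For Pcx, Vnn1 was also the largest, at r 0.622 (permutation p 0.00627, adjusted 0.178; rho 0.656, permutation p 0.00719), 0.37 with quantile normalization and 0.556 without Conv + LM mouse 15. Pcx had an r of 0.545 with the adipocyte marker sum, 0.67 with the muscle marker sum and 0.597 with the bile duct marker sum, and Fbp1 one of 0.574 with the adipocyte marker sum and 0.53 with the hepatocyte marker sum, whose part in these relations was not tested.

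**Figure D4:**
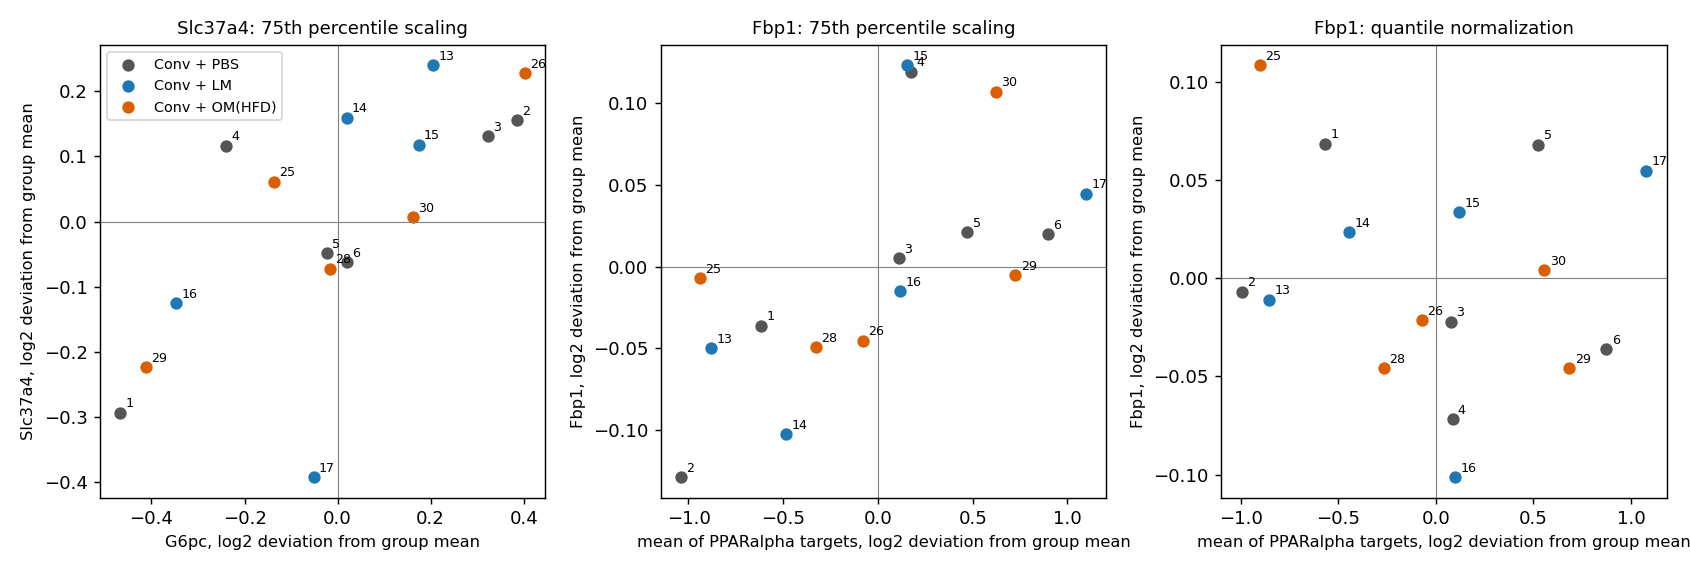
Deviations from group means (log2, both axes) of Slc37a4 against G6pc, and of Fbp1 against the mean of the 12 PPARalpha targets under 2 ways to scale the arrays. Each point is a mouse, numbered and coloured by group. The cloud of Slc37a4 slopes upward (r 0.691), and that of Fbp1 slopes upward with the 75th percentile scaling (r 0.623) but not with quantile normalization (r -0.179).

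**Figure D5:**
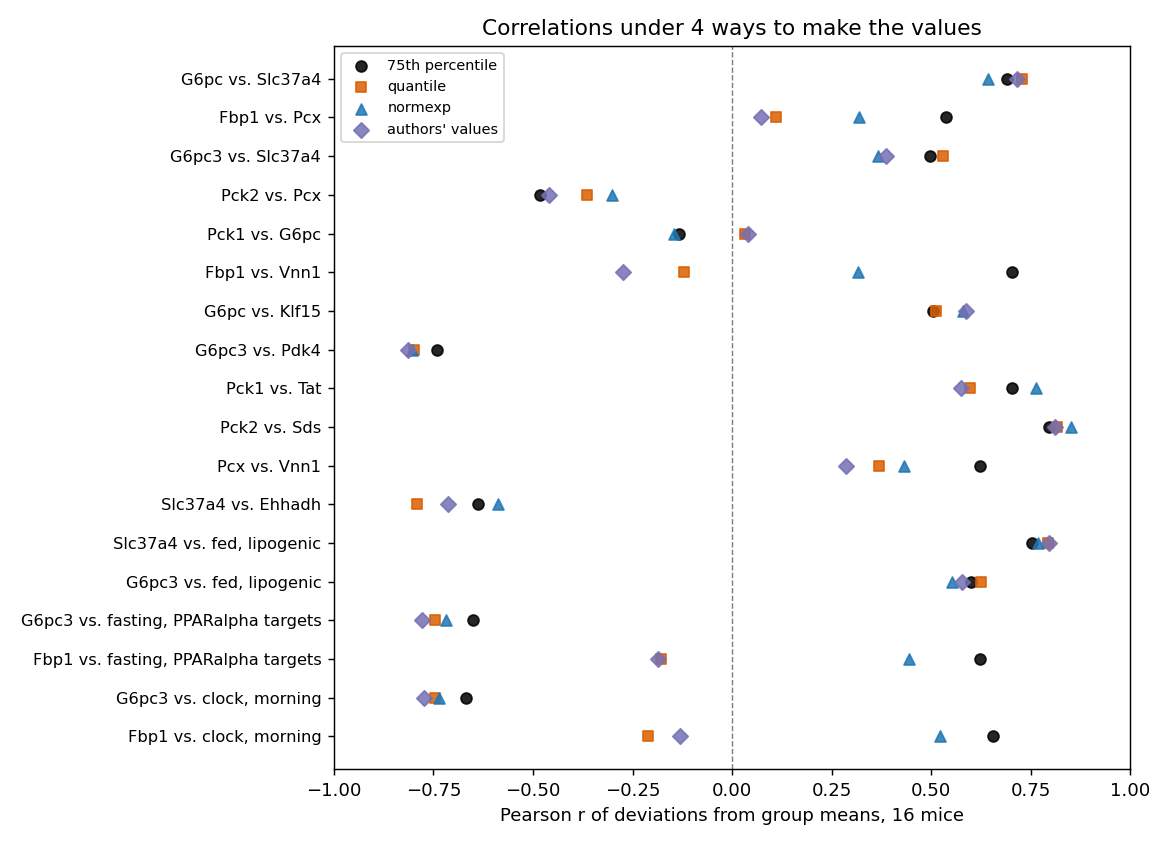
Pearson r over 16 mice (horizontal axis) of 18 relations (rows) under 4 ways to make the values (symbols). The symbols of G6pc with Slc37a4 and of G6pc3 with Pdk4 lie close together, and those of Fbp1 with Vnn1, with the PPARalpha targets and with the morning clock genes lie on both sides of 0.

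The genes whose pattern over the 16 mice was most like that of a member, by Pearson r among all genes with a value on every array, were Zfp467 (r 0.919), BC098222 (0.912) and Tshz1 (0.879) for G6pc. For Pck1 they were Rad51c (0.916), Mtfr2 (0.893) and Wdr89 (0.887), and for Slc37a4 Slc12a5 (0.881), 5730405O15Rik (0.873) and Trmt6 (0.866). For G6pc3 they were Cml2 (0.944), Urm1 (0.935) and Extl1 (0.924), for Fbp1 Zc3h3 (0.945), Gm4285 (0.914) and Larp4b (0.906), and for Pck2 2900009J06Rik (0.888), Slc41a3 (0.879) and Bcl2l11 (0.873). The most like Pcx were 2 unnamed transcripts (0.874 and 0.865) and Imp3 (0.850). None of the 7 genes was among the 3 most like another.

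Where 2 probes read the same gene, those of G6pc3 placed some mice alike and others not. The dimmer probe gave -1.65, -1.23 and -1.15 as lowest, median and highest in Conv + PBS livers, -0.91, -0.85, -1.07, -1.31 and -1.21 in Conv + LM and -0.96, -1.17, -1.51, -1.29 and -1.24 in Conv + OM(HFD) livers. Its r with the brighter probe was 0.566 (permutation p 0.0345, adjusted 0.231; rho 0.538, permutation p 0.0434), 0.625 without the 2 mice farthest from the median, 0.322 on slide 1 and 0.903 on slide 2. Without the 2 mice with high neutrophil and Kupffer cell sums it was 0.461. Both placed Conv + PBS mouse 6 lowest and Conv + OM(HFD) mouse 25 highest in their groups, while Conv + LM mouse 14 was the highest of its group on the dimmer probe and the lowest on the other. The dimmer probe differed by 0.21 between Conv + LM and Conv + PBS (limma p 0.0952), the brighter by 0.08.

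The probes of Slc37a4 had an r of 0.190 (permutation p 0.627, adjusted 0.805; rho -0.0765), which was 0.452 on slide 1, -0.517 on slide 2 and -0.208 without Conv + LM mouse 13. The dimmer one was well above background on 14 of 16 arrays and gave -4.14, -3.38 and -2.31 as lowest, median and highest in Conv + PBS livers, -0.65, -3.70, -3.36, -3.28 and -3.58 in Conv + LM and -2.91, -3.91, -2.63, -2.73 and -2.90 in Conv + OM(HFD) livers. Conv + LM mouse 13 was far above all others on it, and on the brighter probe was the highest of its group but within the range of the Conv + PBS livers. For Conv + OM(HFD) against Conv + PBS the brighter gave -0.17 and the dimmer 0.31 (95% interval -0.71 to 1.33), and for Conv + LM against Conv + PBS they gave -0.10 and 0.42 (95% interval -0.61 to 1.44). The 0.31 lay between 0.15, without Conv + PBS mouse 4, and 0.54, without Conv + OM(HFD) mouse 26, when 1 mouse was left out. For Conv + OM(HFD) against Conv + LM they gave -0.07 and -0.10. Both Conv + LM differences of the dimmer probe depend on Conv + LM mouse 13. Without it they were -0.15 (95% interval -0.81 to 0.52) against Conv + PBS and 0.46 (95% interval -0.23 to 1.15) for Conv + OM(HFD) against Conv + LM, with the sign turned in each. The difference between Conv + OM(HFD) and Conv + LM also turned, to 0.12 (95% interval -0.99 to 1.24), without Conv + OM(HFD) mouse 26. For Pck2 the r between probes was 0.290 (permutation p 0.248, adjusted 0.594; rho 0.259), 0.722 on slide 1, 0.0301 on slide 2 and 0.108 without the 2 mice with high immune cell sums, with the dimmer probe well above background on 3 of 16 arrays.

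G6pc and Slc37a4 had the highest r of the 21 pairs of members, though not past adjustment, and the 250 bases upstream of their start sites are shown for that reason, 5′ to 3′ from RefSeq (GRCm38.p6, both on the plus strand). G6pc is at chr11:101367466-101367715. For Slc37a4, for which RefSeq lists 3 starts, the window of the most upstream one is shown, chr9:44396696-44396945. Capitals mark matches, on either strand, to 4 motifs: the TATA box TATAAA, the core TGACG of the cyclic AMP response element, the forkhead motif GTAAACA and the E-box CACGTG. Only exact matches to these letters were searched. Variant forms stay in lower case, so a window without a match may still hold such an element.

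G6pc: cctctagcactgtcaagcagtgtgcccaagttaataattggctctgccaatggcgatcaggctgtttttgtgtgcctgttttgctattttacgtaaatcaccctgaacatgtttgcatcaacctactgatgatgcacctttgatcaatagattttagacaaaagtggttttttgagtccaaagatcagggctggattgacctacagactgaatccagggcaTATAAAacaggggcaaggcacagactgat
Slc37a4: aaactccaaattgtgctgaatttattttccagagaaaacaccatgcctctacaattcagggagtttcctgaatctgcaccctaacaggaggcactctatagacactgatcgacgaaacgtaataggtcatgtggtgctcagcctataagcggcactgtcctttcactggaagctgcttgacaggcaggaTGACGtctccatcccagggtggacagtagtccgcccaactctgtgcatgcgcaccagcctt

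The G6pc window holds TATAAA, which 12.4% of the 32851 promoter windows hold, and the Slc37a4 window shown holds TGACG, which 17.8% hold. Among the 10 windows of the 7 genes, TATAAA was found for G6pc and for the most downstream start of Slc37a4, TGACG for Pck1 and Slc37a4, CACGTG for G6pc3 and Pcx (6.02% of all windows), and GTAAACA for none (3.17% of all windows). The windows of Pck2 and Fbp1 held none of the 4. The 2 genes shown shared no motif of the 4 between their printed windows.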

How the data were processed

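Cy3-labelled liver RNA of 16 mice was hybridised to 1-colour Agilent arrays, read with Agilent Feature Extraction 10.10.1.1 per the labels. The deposited scanner files hold the processed signal intensity of each spot, background-subtracted by the software and not scaled between arrays. A second deposited table, also from the authors, holds log2 values that lay within 0.132 of the log2 median spot intensity after quantile normalization and served as an alternative.

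Spots of a probe were averaged without outlier-flagged spots, and log2 signals were taken relative to their array's 75th percentile. A probe was kept if it was well above background on 5 or more of the 16 arrays, the probe with the highest mean stood for a gene, and 20404 genes were fitted with limma 3.58.1 (R 4.3.3) in 1 model of the 3 groups, with Benjamini-Hochberg adjustment over all genes. The script was tested on simulated data. Groups came from the labels. Precision is limited by the number of arrays. Single genes were also tested with a two-sided exact permutation test over mice, whose smallest possible p is 0.00216 for 5 against 6 mice and 0.00794 for 5 against 5. Correlations used deviations from group means and 100000 permutations within groups (Python 3.11.15, numpy 2.4.6).

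The members and gene lists were chosen with earlier results of these data known. Named genes were all members with all their probes, Fbp2, genes of the enzyme, carrier, regulator and fasting lists with an unadjusted p under 0.05, for each member the fasting gene with the largest r (none passed adjustment), and the 3 genes most like each member. Genes of the fed list stand outside this rule, since they were picked with their values known. Of 37074 gene names on the array 23666 equal a RefSeq symbol, all 7 members among them. Alternatives covered background correction, normalization, the filter, the choice of probe, array weights, the slide, the test and leaving out each mouse. Each slide alone for the group differences, outlier spots kept, the Slc37a4 probes without each mouse in turn, and the removal of 2 mice with high immune cell markers were chosen after seeing the data. The list of opposing glycolytic genes is not reported here.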

Additional observations from a re-analysis of the deposited data

Results flagged for a closer look

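In 6 of 30 groups of a probe, 1 mouse lay apart from the rest of its group by Dixon's ratio, the gap to the nearest mouse over the range of the group. Chance gives about 1 in 20 such groups where groups are independent and their spread is normal. The probes here share the same mice, and the share over all probes was not computed, so the count is not a test of these genes. The critical value is 0.71 for 5 mice and 0.625 for 6.

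The ratio was 0.863 for Conv + LM mouse 13 on the dimmer Slc37a4 probe, at -0.65 against -3.7 to -3.28 in the others, and 0.781 for Conv + OM(HFD) mouse 26 on the same probe, at -3.91 against -2.91 to -2.63. It was 0.785 for Pcx in Conv + PBS mouse 3 (7.41 against 7.01 to 7.09), 0.735 for the brighter Pck2 probe in Conv + LM mouse 14 (0.54 against 0.13 to 0.24), 0.717 for Fbp1 in Conv + OM(HFD) mouse 30 (9.78 against 9.62 to 9.67) and 0.689 for the dimmer G6pc3 probe in Conv + PBS mouse 6 (-1.65 against -1.3 to -1.15). No cause of these values was tested.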

How the results depend on the processing

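No paired analysis was possible because no replicate number occurs in more than 1 group. The count of members past an unadjusted p of 0.05 over the 3 comparisons was 0, and it was 1 with the normexp background correction, 2 with the methods' t-test, 2 with the exact permutation test and 1 on slide 1 alone. Of all genes 2.7% to 3.15% passed with normexp, 2.88% to 3.66% by the t-test, 2.98% to 3.88% by the exact test and 3.82% to 5.01% on slide 1, over the 3 comparisons. Leaving out 1 mouse gave 0 to 1, where the 1 was Fbp1 in Conv + LM against Conv + PBS, without Conv + PBS mouse 2 (p 0.0351) or without Conv + LM mouse 15 (p 0.0339). Of the correlations between members, 1 had an adjusted p under 0.05 with the authors' values, against 0. Of those with other genes, 8 did with the authors' values and 5 without the 2 mice with high neutrophil and Kupffer cell markers, against 0. Leaving out 1 mouse gave 0 to 0 for each of these counts and for the pairs of probes.

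Of 321 values of the 21 log2 differences 282 kept their direction and side of the threshold, and 33 changed direction, in 14 differences. None of those that changed direction exceeded 0.17 in size in the report. For Conv + OM(HFD) against Conv + PBS they were Fbp1 on slide 1 (0.04), G6pc on slide 2 (0.07), Pck2 on slide 2 (-0.06) and without the 2 mice (-0.01), Pcx with normexp (-0.04), the authors' values (-0.02), array weights (-0.03) and on slide 1 (-0.02), G6pc3 with the authors' values (0.04), the mean of its probes (0.02), its dimmer probe (0.05) and on slide 2 (0.01), and Slc37a4 with the mean of its probes (0.07) and its dimmer probe (0.31). For Conv + LM against Conv + PBS they were G6pc with quantile normalization (0.01), the slide as a block (0.002) and on slide 2 (0.13), Pck2 with the slide as a block (0.003) and on slide 1 (0.07), Pcx with the authors' values (0.02) and on slide 2 (0.09), and Slc37a4 with the mean of its probes (0.16), its dimmer probe (0.42) and on slide 1 (0.02). For Conv + OM(HFD) against Conv + LM they were Pck1 with normexp (-0.03), quantile normalization (-0.04), the authors' values (-0.11) and on slide 1 (-0.01), Pck2 without the 2 mice (-0.01), Pcx with normexp (-0.03), the authors' values (-0.05) and on slide 2 (-0.06), and Slc37a4 on slide 2 (0.07). The cause was not tested.

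Leaving out 1 mouse also turned, for Conv + OM(HFD) against Conv + PBS, Fbp1 (-0.04 to 0.01), G6pc3 (-0.07 to 0.03), Pck2 (-0.01 to 0.18) and Pcx (-0.04 to 0.07), for Conv + LM against Conv + PBS, G6pc (-0.11 to 0.07), Pck2 (-0.08 to 0.03) and Pcx (-0.06 to 0.03), and for Conv + OM(HFD) against Conv + LM, Pck1 (-0.05 to 0.08), Pck2 (-0.01 to 0.19) and Pcx (-0.01 to 0.07). It moved the r of Pck1 and G6pc between -0.235 and 0.146 and that of the Slc37a4 probes between -0.208, without Conv + LM mouse 13, and 0.342.

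Of 201 values of the 21 correlations named, 12 changed sign. The r of Pck1 and G6pc was 0.14 without the 2 mice farthest from the median, 0.0314 with quantile normalization, 0.0403 with the authors' values and 0.208 on slide 2. With quantile normalization and with the authors' values the r of Fbp1 was -0.12 and -0.273 with Vnn1, -0.179 and -0.186 with the PPARalpha targets, and -0.21 and -0.132 with the morning clock genes. The r of G6pc and Klf15 was -0.264 on slide 1, and that of the Pck2 probes -0.0498 with normexp. The pairs of probes have no value under the mean of all kept probes, and their r on each slide is not in this tally. The signal limits the dimmer Pck2 and Slc37a4 probes, which were well above background on 3 and 14 of 16 arrays.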
